A study of Saccharomyces cerevisiae S288C with 12 samples.

Results

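Chromatin bound by Cse4 in which the lysines at positions 215 and 216 had been replaced by alanine (K215/216A) was compared with chromatin bound by wild type Cse4 in Saccharomyces cerevisiae S288C. Regions of the authors' merged peak list of each strain were put in 3 classes by a single rule. A region that overlapped a region of the other strain by at least 1 bp was called common, and the remaining regions were called only in K215/216A or only in wild type. The K215/216A list held 3511 regions and the wild type list 2635, which joined into 3988 separate loci, of 4244 when the K215/216R list was added. Of the 3988 loci, 1447 were only in K215/216A, 1991 were common and 550 were only in wild type.

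All strains carried a deletion of PSH1 (psh1delta) and a CSE4 gene tagged with 6His and 3HA under the galactose-inducible promoter pGAL. The tagged protein was K215/216A in one strain, K215/216R (arginine at the same lysines) in another, and wild type in the strain used as the comparison. Cultures in 2% raffinose at 30 °C received 2% galactose for 2 h, so every measurement is of overproduced Cse4 in cells without Psh1. Sonicated chromatin with fragments of about 100 bp was precipitated with anti-HA beads, and the series held 12 libraries, of which the 4 K215/216A and wild type ChIP libraries were compared, the 2 K215/216R ChIP libraries were set beside them, and the 6 inputs were not used here. The labels do not say whether the 2 libraries of a strain came from separate cultures, so the spread between them may be technical.

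Cse4 is the yeast CENP-A, the histone H3 variant that marks the single nucleosome on which each budding yeast kinetochore is built. Psh1 is a ubiquitin ligase that targets Cse4 for degradation, and without it overproduced Cse4 accumulates on chromosome arms, often near promoters. Lysines 215 and 216 lie in the C-terminal part of the protein, and by its title the study asked about sumoylation there and the deposition of Cse4 into chromatin.

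The K215/216A libraries had 4575 and 4725 peaks, and the wild type libraries had 3123 and 4720. Sequencing depth, recovered from the deposited pileups and p-values came to a genome-wide background of 146 and 148 fragments per base for K215/216A, 86.2 and 156 for K215/216R, and 59.5 and 126 for wild type. The sources used here do not say whether the caller's background came from input or from ChIP reads, and these depth values, with the thinned and scaled counts built on them, depend on that. By this measure wild type library 1 was the shallowest and had the shortest list, and its median fold (pileup over background, as the authors' peak caller gave it) was 1.66, against 1.43 and 1.45 in K215/216A and 1.48 in wild type library 2. Because the lowest fold that passes the caller's threshold falls with depth, fold is used below only for description and for ranks within a library. No library had a peak inside PSH1, the deleted gene. Every library had a peak inside CSE4, with fold 1.85 and 2.08 in K215/216A and 2.87 and 2.249 in wild type, and at the GAL1 and GAL10 promoters, with fold 2.54 and 2.60 in K215/216A and 3.52 and 2.76 in wild type. Peak lists do not show the codons at positions 215 and 216, so the mutation itself could not be checked.

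The regions only in K215/216A made up 41.2% of that strain's list and covered 518 kb. They were narrower and lower than the common regions of the same strain. Their median width was 306 bp and their median fold 1.42, against 451 bp and 1.53 for the 2064 common K215/216A regions, and 12 of them (0.829%) were 1 kb or longer, against 173 of the common regions (8.38%). The regions only in wild type made up 20.9% of the wild type list and covered 178 kb. Their median width was 286 bp and their median fold 1.53, against 419 bp and 1.66 for the 2085 common wild type regions. In both strains, then, most of the strongest regions were shared. Of the 1170 K215/216A regions with the highest fold, 23.0% were only in K215/216A, against 55.1% of the 1171 with the lowest. The wild type list had the same order, with 7.63% of its highest 878 and 31.4% of its lowest 879 regions only in wild type.

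A region only in 1 strain did not always lack a peak in the other. The merged lists keep a region only where peaks of both libraries of a strain overlap, so a peak in 1 library of the other strain leaves no trace in that strain's list. Of the 1447 regions only in K215/216A, 821 (56.7%) had a peak in wild type library 2 and 88 (6.08%) in wild type library 1, the shallower one, and 553 (38.2%) had a peak in neither. Of the 550 regions only in wild type, 147 (26.7%) had a peak in K215/216A library 1, 207 (37.6%) in library 2, and 205 (37.3%) in neither.

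**Figure D1:**
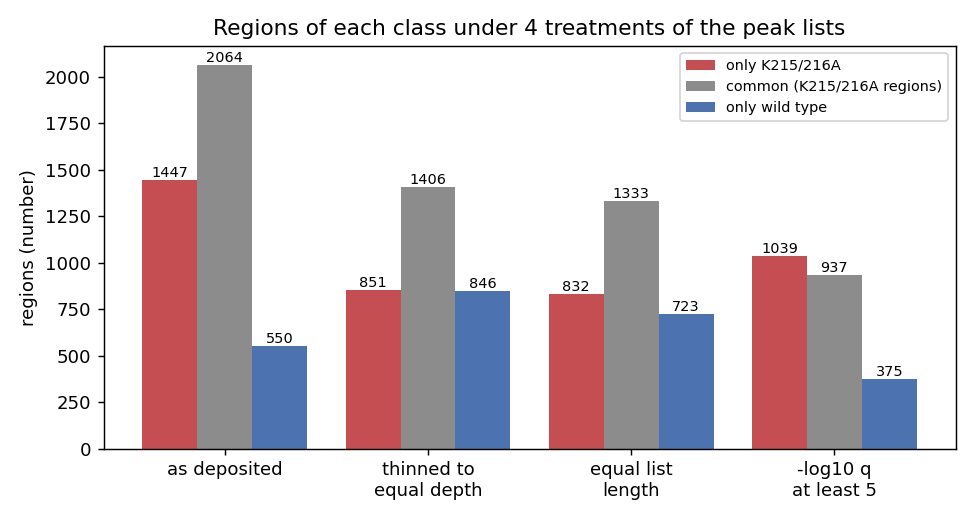
Number of regions only in K215/216A, common (counted in the K215/216A list) and only in wild type, as deposited and after 3 other treatments of the peak lists (vertical axis, regions). The 1447 and 550 regions only in K215/216A and only in wild type of the deposited lists became 851 and 846 once all libraries were thinned to the same depth.

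The excess of regions only in K215/216A moved with depth. When each peak's pileup was thinned to the background of wild type library 1, 851 regions were only in K215/216A, 1406 were common and 846 were only in wild type. When each library was cut to its best 3123 peaks the counts were 832, 1333 and 723. Leaving out 1 library changed more than depth. That strain's list then held every peak of its other library, not only regions with a peak in both. Leaving out wild type library 1, so that library 2 alone stood for wild type, gave 627 regions only in K215/216A and 1684 only in wild type. Leaving out wild type library 2 gave 1379 and 818. Leaving out K215/216A library 1 gave 2345 regions only in K215/216A and 346 only in wild type, and leaving out library 2 gave 2252 and 410. The plot of region counts shows that the difference in class size was no longer present at equal depth, so a greater number of sites in K215/216A cannot be told apart from greater depth.

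The overlap between libraries was nonetheless larger within a strain than between strains. With every list cut to 3123 peaks, 72.2% and 71.8% of the peaks of one K215/216A library overlapped the other, and 71.4% and 68.1% of the peaks of one wild type library overlapped the other. Between a K215/216A and a wild type library the share was 58.9% to 67.3%, below every within-strain value. This difference was not tested.

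Scaled without sampling to the depth of wild type library 1, 847 of the 1447 regions only in K215/216A (58.5%) would still have passed the caller's threshold, and 1376 (95.1%) would have passed at the depth of library 2. Of the 553 with no wild type peak at all, 293 (53.0%) would have passed at both depths, by their fold in K215/216A. For the rest of the 553 a difference was not detectable at the depth of wild type library 1. The K215/216A libraries were the deeper ones, so all 550 regions only in wild type passed by construction, as did all 2085 common wild type regions. That outcome was fixed in advance and carries no information on the 550 regions.

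The classes lay in different parts of the genome. Regions only in K215/216A sat at promoters about as often as common regions did, and regions only in wild type sat mostly inside genes. The highest summit fell in the 500 bp upstream of a protein-coding gene in 564 of the 1447 regions only in K215/216A (38.98%, Wilson 95% interval 36.5 to 41.5), in 39.4% of common K215/216A regions, in 37.6% of common wild type regions and in 103 of the 550 regions only in wild type (18.7%, 15.7 to 22.2). These promoter windows make up 21.3% of the annotated span, above the share of regions only in wild type in the deposited lists. That order turned under other treatments, in which 25.3% (thinned to equal depth), 27.4% (equal list length) and 28.5% (−log10 q of at least 5) of the regions only in wild type were at promoters. Intervals cover counting error only.

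**Figure D2:**
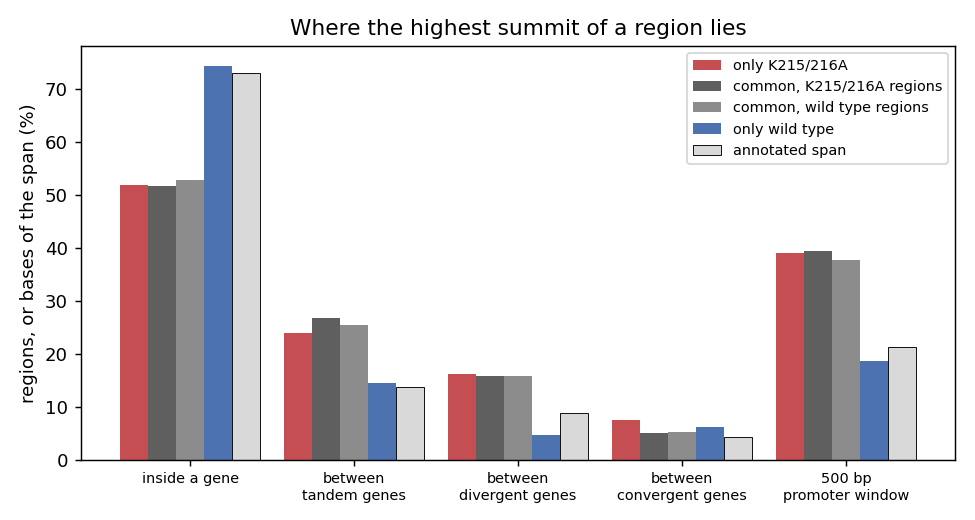
Share of regions (vertical axis, percent) whose highest summit lies inside a gene, between tandem, divergent or convergent genes, and in a 500 bp promoter window, for regions only in K215/216A, common regions of each strain and regions only in wild type, with the share of bases of the annotated span in light grey. Regions only in K215/216A are close to the common regions in most contexts, with 51.9% inside genes, and regions only in wild type have 74.4% inside genes and the lowest share between divergent genes, 4.73%.

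The gene arrangement around the summit showed the same split. Between divergent genes, which share an upstream space, lay 16.2% of the regions only in K215/216A and 4.73% of those only in wild type, with 15.8% of common regions in each strain and 8.85% of the span. Between tandem genes lay 23.98% of the regions only in K215/216A and 14.5% of those only in wild type. Between convergent genes, where 2 gene ends meet, the shares were 7.53% for regions only in K215/216A and 6.18% for those only in wild type, against 5.09% of the common K215/216A regions. Inside genes lay 51.9% of the regions only in K215/216A, 74.4% of those only in wild type and 73.0% of the span.

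Position within the gene differed as well. Summits inside a single gene lay at a median of 34.3% of the way from gene start to gene end for regions only in K215/216A, 27.4% for common K215/216A regions and 45.9% for regions only in wild type. The genes that held regions only in wild type were longer, with a median of 1719 bp, against 1287 bp for regions only in K215/216A. The median over all genes was 1200 bp. That median counts each gene once, while longer genes can hold more summits, so it is not a baseline for the class medians.

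The promoter contrast was present at high and low fold and at equal depth. In the highest, middle and lowest of 3 equal parts of the K215/216A list by fold, 46.8%, 39.8% and 35.0% of the regions only in K215/216A were at promoters. In the same parts of the wild type list, 20.9%, 20.8% and 16.7% of the regions only in wild type were, against 42.7%, 37.4% and 31.2% of the common wild type regions. At equal depth the promoter share was 39.95% of regions only in K215/216A and 25.3% of those only in wild type. Over 12 settings of the classes that gave separate values the difference lay between 12.7 and 24.8 percentage points, always higher for K215/216A. Among regions with no peak at all in the other strain, 39.4% of the 553 K215/216A regions and 14.6% of the 205 wild type regions were at promoters, and of the 293 K215/216A regions that would have been seen at both wild type depths 116 (39.6%) were.

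Whole libraries, counted without the classes, differed in the same direction. Promoter windows held 36.4% of summits in each K215/216A library (36.4% ± 0.0088, SD, n = 2), against 32.4% and 31.8% in the wild type libraries (32.1% ± 0.397, SD, n = 2), a difference of 4.26 points. The share of summits within genes was 55.4% and 54.7% in K215/216A and 59.2% and 59.1% in wild type, a difference of -4.10 points. In neither measure did the libraries of the strains overlap. The exact two-sided permutation test gave p = 0.333 for each, which is the smallest p that 2 libraries against 2 allow. With all libraries thinned to the same depth the differences were 6.20 points for promoters and -6.72 points for genes. Median peak width was 276 and 272 bp in K215/216A and 250 and 272 bp in wild type, so the ranges touched (exact permutation p = 0.667).

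Regions of the strains were also unequally spread around centromeres. As centromere positions were not used here, a centromere interval was the gap that separates the last annotated gene of the left arm from the first of the right arm, on each of the 16 chromosomes. Every interval touched a region of the K215/216A list: 13 touched a common region and 12 a region only in K215/216A, some of them both. In the wild type list 12 intervals touched a common region, no interval touched a region only in wild type, and 4, those of chromosomes VI, VII, IX and XII, touched none.

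The values at those 4 intervals show how far the absence went. On chromosome IX the highest fold of a peak touching the interval was 3.36 and 3.92 in K215/216A, with no peak in wild type library 1 and 1.79 in library 2. On chromosome XII it was 2.39 and 2.40 in K215/216A, with no peak in wild type library 1 and 1.70 in library 2. On chromosome VI it was 2.35 and 2.41 in K215/216A, with no peak touching the interval in either wild type library; the K215/216A region there, in DEG1, was nonetheless common, since both wild type libraries had a peak at that locus, with fold 1.72 and 1.27, that stopped short of the interval. On chromosome VII it was 2.16 and 1.68 in K215/216A, and neither a wild type nor a K215/216R library had a peak touching the interval. Both K215/216R libraries nonetheless had a peak at the K215/216A region there, in EFM5, that did not reach the interval. Neither wild type library had a peak at that region. The deeper wild type library therefore had a peak at 2 of these 4 intervals, and the shallower one at none.

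Regions only in K215/216A were densest at the centromere. They reached 97.1 per 100 kb in the intervals and 11.3 per 100 kb beyond 50 kb, against 85.7 and 15.9 for common K215/216A regions and 0 and 4.56 for regions only in wild type. Within 5 kb of an interval lay 76 of the 1447 regions only in K215/216A (5.25%), 53 of the 2064 common K215/216A regions (2.57%) and 3 of the 550 regions only in wild type (0.545%), while 1.47% of the span lies there. At equal depth the shares were 5.88% of regions only in K215/216A and 0.827% of those only in wild type.

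**Figure D3:**
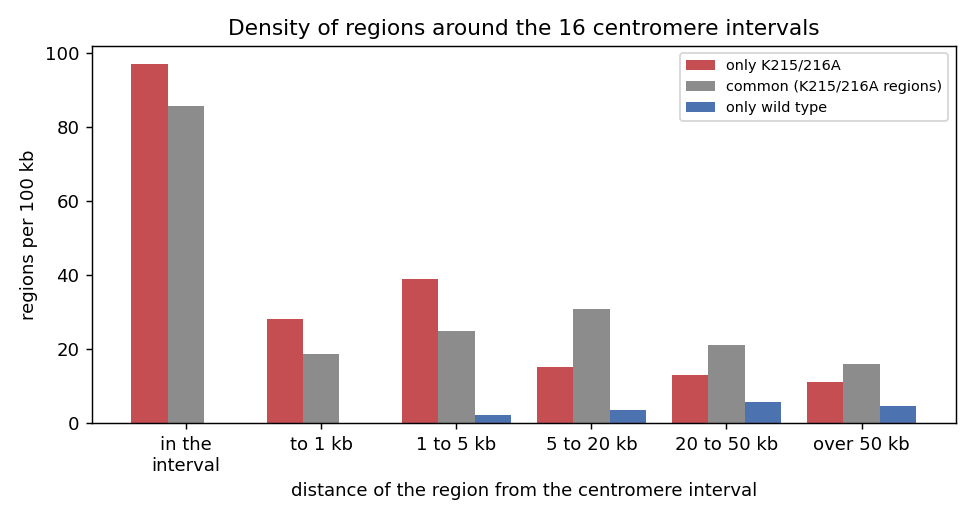
Regions per 100 kb (vertical axis) by distance from the centromere interval (horizontal axis, 6 distance classes) for regions only in K215/216A, common regions counted in the K215/216A list, and regions only in wild type. Regions only in K215/216A are densest in the intervals at 97.1 per 100 kb, and regions only in wild type are at 0 there and at 4.56 beyond 50 kb.

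The 76 regions near centromeres came from all 16 chromosomes. Wild type library 2 had a peak at 50 of them, wild type library 1 at 3, and neither at 23. K215/216R library 1 had a peak at 37 and library 2 at 60. Only 21 of the 76 had their summit in a promoter window (27.6%), a smaller share than the 38.98% of the whole class. As a share of each library's peaks, 3.48% and 3.11% lay within 5 kb of an interval in K215/216A and 2.21% and 2.69% in wild type, a difference of 0.843 points with no overlap between the strains (exact permutation p = 0.333, the smallest possible). A peak list cannot tell more cells with Cse4 at a site from more Cse4 per cell.

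Where both strains had a centromere region, ranks by fold within each library gave the same picture. Ranks were taken among the 1991 common loci, all of which had a peak in all 4 libraries, with rank 1 the highest fold. Of the 15 common loci that touched a centromere interval, 11 ranked higher in both K215/216A libraries than in both wild type libraries, 4 overlapped and none ranked lower in both. Over all 1991 common loci, 21.4% ranked higher and 21.8% ranked lower in both K215/216A libraries. The locus of chromosome IV ranked 1 and 2 in K215/216A (fold 4.44 and 3.78) and 543 and 10 in wild type (fold 1.94 and 2.78). The locus on chromosome VIII next to OSH7, which encodes an oxysterol-binding protein, ranked 2 and 3 in K215/216A (fold 3.53 and 3.72) and 601 and 342 in wild type (fold 1.91 and 1.94). The chromosome III locus ranked 10 and 10 in K215/216A and 1514 and 498 in wild type. In these examples the wild type ranks lay much further apart than the K215/216A ranks. The lowest centromere rank in K215/216A was at chromosome XVI, where the locus ranked 1235 and 144 in K215/216A and 289 and 358 in wild type.

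Towards chromosome ends the order was the opposite. Within 20 kb of an end lay 29 regions only in K215/216A (2.00%), 85 common K215/216A regions (4.12%) and 30 regions only in wild type (5.45%), with 5.32% of the span. By library the share of peaks there was 3.08% and 3.77% in K215/216A and 4.55% and 4.19% in wild type, without overlap and with a difference of -0.946 points (exact permutation p = 0.333, the smallest possible). Nuclear tRNA genes overlapped 12 regions only in K215/216A, 21 common K215/216A regions, 8 common wild type regions and none of the regions only in wild type.

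All 16 chromosomes carried both kinds of strain-specific region. Regions only in K215/216A lay at 7.55 per 100 kb on chromosome I to 15.1 on chromosome V, and regions only in wild type at 2.87 on chromosome III to 7.11 on chromosome V. Chromosome III had the greatest imbalance, with 47 regions only in K215/216A and 9 only in wild type, and chromosome I the smallest, with 17 and 15. As a share of the K215/216A list of each chromosome, regions only in K215/216A ran from 27.9% on chromosome I to 46.5% on chromosomes IV and XI.

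Counted over all peaks, the libraries of the strains did not overlap on 5 of the 16 chromosomes. For a single chromosome, no overlap has an exact permutation p of 0.333, so several of 16 would show it without any strain difference. Chromosome IV held 10.9% and 11.4% of the peaks in K215/216A and 10.2% and 10.7% in wild type. Chromosome VIII held 4.44% and 4.53% in K215/216A and 5.03% and 5.08% in wild type. Chromosomes I, IX and X were also lower in K215/216A. The number of chromosomes without overlap was 11 when the libraries were thinned to the same depth and 11 at equal list length, so it depended on how the lists were treated. After Benjamini-Hochberg adjustment over 16 chromosomes the exact permutation p was 0.97 for each of these, so no chromosome passed, as none could in this test with 2 libraries a strain.

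Regions of the same class also lay next to each other in runs, with no region of another class between them. With 1447 of 3988 loci only in K215/216A and 550 only in wild type, some runs occur without any clustering. Run lengths were not tested against a random order of loci. The longest run only in K215/216A was 9 regions at chrIV:746481-776212, which held TAF12, SWI5, EKI1, KGD2, HOM2, SAC3 and SSY1 among its nearest or overlapped genes. The fold of its regions averaged 1.24 to 1.63 over both K215/216A libraries, and 5 of the 9 had no wild type peak. A run of 7 at chrXIV:617845-628713 led up to the centromere interval of chromosome XIV and ended in DOM34. The longest runs only in wild type held 4 regions. One lay wholly inside FLO11 (chrIX:389583-392974), the gene of a cell surface flocculin, with fold 1.48 to 1.63 on average; 3 of its 4 regions had no K215/216A peak and all 4 had a K215/216R peak. FLO11 contains repeats, and how the authors placed reads with several matches was not given in the sources used here, so its values are uncertain.

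Promoters of named genes were then assigned to classes by the summit. Of 6002 nuclear protein-coding genes, 654 (10.9%) had a region only in K215/216A with its highest summit in the 500 bp promoter, 1070 (17.8%) had a common region there and 122 (2.03%) had a region only in wild type. Those 3 shares are the background against which the gene lists are read, and no list was tested.

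The citric acid cycle and respiratory chain list had the highest share of promoters only in K215/216A of the 11 lists. Of its 35 genes, 10 (28.6%) were in that class, 7 were common and none was only in wild type. The 10 were CIT1, KGD2, LSC1 and SDH1, which encode citric acid cycle enzymes or their subunits, COX7, COX9 and COX13 of cytochrome c oxidase, QCR7 and QCR9 of the cytochrome bc1 complex, and NDI1, the internal NADH dehydrogenase. At CIT1, citrate synthase, fold was 1.61 and 2.05 in K215/216A with no wild type peak, and the gene borders the centromere interval of chromosome XIV. At LSC1, a succinyl-CoA ligase subunit, fold was 1.85 and 1.62 in K215/216A with no wild type peak. In all, 7 of the 10 had no wild type peak and 8 had a K215/216R peak. The summits at KGD2, LSC1, SDH1 and COX9 also lay in the promoter windows of their neighbours NUM1, ARP8, AVT3 and IDP1, respectively. COX9 had a peak in wild type library 1 with fold 1.58, above its 1.29 and 1.19 in K215/216A.

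Glycolysis and fermentation genes had 5 of 27 promoters (18.5%) only in K215/216A, 3 common and none only in wild type. None of the 5 had a peak in either wild type library. They were TDH3, the main glyceraldehyde-3-phosphate dehydrogenase, with fold 1.45 and 1.64 in K215/216A, ENO1, enolase, with 1.58 and 1.35, PDC1, the main pyruvate decarboxylase, with 1.60 and 1.54, ADH1, the fermentative alcohol dehydrogenase, with 1.38 and 1.60, and ALD6, cytosolic aldehyde dehydrogenase, with 1.49 and 1.33. K215/216R library 2 had a peak at 4 of these promoters, all but PDC1, and library 1 at ADH1 alone. The common members were ADH2, ADH3 and PDC6. TDH3, ENO1 and PDC1 have close paralogs, so read placement could affect their values.

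Other lists had mixed or common promoters. Sterol synthesis genes had 11 of 26 promoters common (42.3%), 2 only in K215/216A (ERG6 and ERG26) and 1 only in wild type (ECM22, a regulator of sterol genes). The ERG26 region lies in the centromere interval of chromosome VII. The galactose regulon had 3 of 10 common (GAL1, GAL10 and GAL4) and 1 only in K215/216A, GAL7, with fold 1.61 and 1.58 in K215/216A and no wild type peak. Kinetochore genes had 7 of 43 common, 2 only in K215/216A and none only in wild type. The 2 were MAD2, a spindle checkpoint protein, where both wild type libraries also had a peak in the region, and BIR1, of the chromosomal passenger complex, with fold 1.37 and 1.28 in K215/216A and no wild type peak.

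Of the 10 histone genes, HHF1 (histone H4) and HTZ1 (histone H2A.Z) had promoters only in K215/216A, with fold 1.39 and 1.45 at HHF1 and 1.37 and 1.26 at HTZ1, and no wild type peak. The vacuolar ATPase list had 4 of 15 common, 1 only in K215/216A (VMA5) and 2 only in wild type (VMA8 and VMA10). Cytosolic ribosomal protein genes were rarely in any class, with 7 of 138 (5.07%) only in K215/216A, 2 (1.45%) common and 1, RPS0A, only in wild type. Cell wall and septum genes had 3 of 38 only in K215/216A and 7 common, hexose transporters 2 of 16 and 2, and thioredoxin and peroxiredoxin genes 2 of 20 (TRR1 and TSA1) and 6, with none only in wild type in these 3 lists.

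The strongest regions only in K215/216A were again centromeric. Of the 10 with the best mean rank of fold over both K215/216A libraries, 6 touched a centromere interval and 9 had a peak in wild type library 2, while none had one in wild type library 1. First was a region at chrIX:354710-355598, whose summit lay in YIL001W, with fold 3.36 and 3.92 in K215/216A, 2.93 and 2.24 in K215/216R and 1.79 in wild type library 2. The others at centromere intervals were nearest to or in DOM34 (ribosome rescue), PHO80 (a cyclin of phosphate signalling), DNM1 (a dynamin-related protein of mitochondrial fission), VPS1 (a dynamin-like protein of vacuolar sorting) and TFC3 (a subunit of RNA polymerase III factor TFIIIC). At TFC3, chrI:151650-151814, fold was 2.13 and 2.15 in K215/216A, 1.34 in K215/216R library 2, and no other library had a peak.

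The arm regions among the first 10 were in MUD1 (a U1 snRNP protein), in SSP120, and at the promoters of ADE16 (purine synthesis) and ATG40 (an autophagy receptor of the endoplasmic reticulum). At MUD1, fold was 2.40 and 2.32 in K215/216A and 2.21 in wild type library 2. At ADE16 it was 2.19 and 2.17 in K215/216A and 1.76 in wild type library 2. These are regions that the rule calls specific to K215/216A because wild type library 1 had no peak, and wild type library 2 had a peak at each of the 4.

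**Figure D4:**
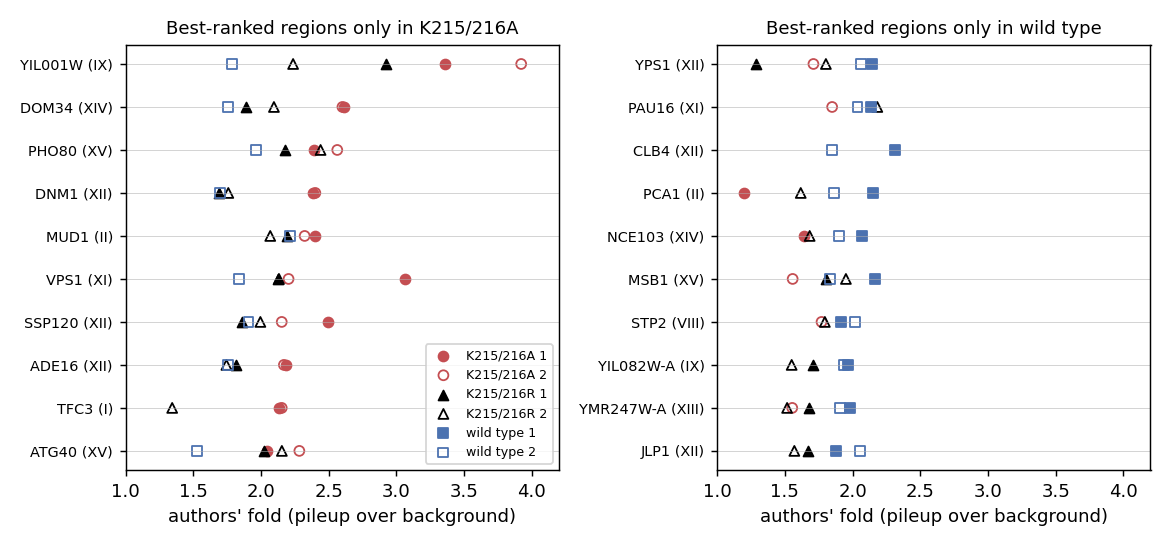
The authors' fold (horizontal axis, pileup over background) at the 10 best-ranked regions only in K215/216A (left) and the 10 best-ranked regions only in wild type (right), named by gene with the chromosome in parentheses, with 1 symbol for each library that has a peak there and none where it has no peak. On the left 9 of 10 regions have a peak of wild type library 2 and none of library 1, and on the right K215/216R library 2 has a peak at 9 of 10.

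With regions that had a wild type peak set aside, a choice made after the values were seen, the best-ranked regions were those of TFC3, YML100W-A, RRN5, PTP3 and the shared PKH1 and IZH1 promoter. RRN5 encodes a subunit of the RNA polymerase I upstream activation factor, and its fold was 1.95 and 1.94 in K215/216A and 1.68 in K215/216R library 2. PTP3 encodes a tyrosine phosphatase, and its fold was 1.87 and 2.03 in K215/216A, with 1.65 and 1.74 in K215/216R. At GID8, RPG1 and SVL3, also among the first 10, only the K215/216A libraries had peaks.

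The 10 best-ranked regions only in wild type had lower values and none was at a centromere interval. They were in or near YPS1 (a yapsin protease), PAU16, CLB4 (a B-type cyclin), PCA1 (a cadmium-transporting ATPase), NCE103 (carbonic anhydrase), MSB1, STP2 (a transcription factor of amino acid permease genes), YIL082W-A, YMR247W-A and JLP1 (a sulfonate dioxygenase). The highest, in YPS1 at chrXII:387069-387359, had fold 1.71 in K215/216A library 2 and 2.14 and 2.06 in wild type. CLB4 was the only one of the 10 with no peak in any K215/216A or K215/216R library, with fold 2.32 and 1.85 in wild type. YIL082W-A and JLP1 had no K215/216A peak either, with fold 1.97 and 1.94 in wild type at YIL082W-A and 1.88 and 2.06 at JLP1, and both had a peak in each K215/216R library. PAU16 belongs to the near-identical subtelomeric seripauperin family, so its reads may be shared with other copies.

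Ranks at the common loci were then compared between the strains. Of the 1991, 426 (21.4%) ranked higher by fold in both K215/216A libraries than in both wild type libraries, 434 (21.8%) ranked lower in both, and 1131 overlapped. With a mean rank difference of at least 250 asked as well, 355 (17.8%) were higher and 362 (18.2%) lower in K215/216A. The higher and lower loci differed in where they lay.

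**Figure D5:**
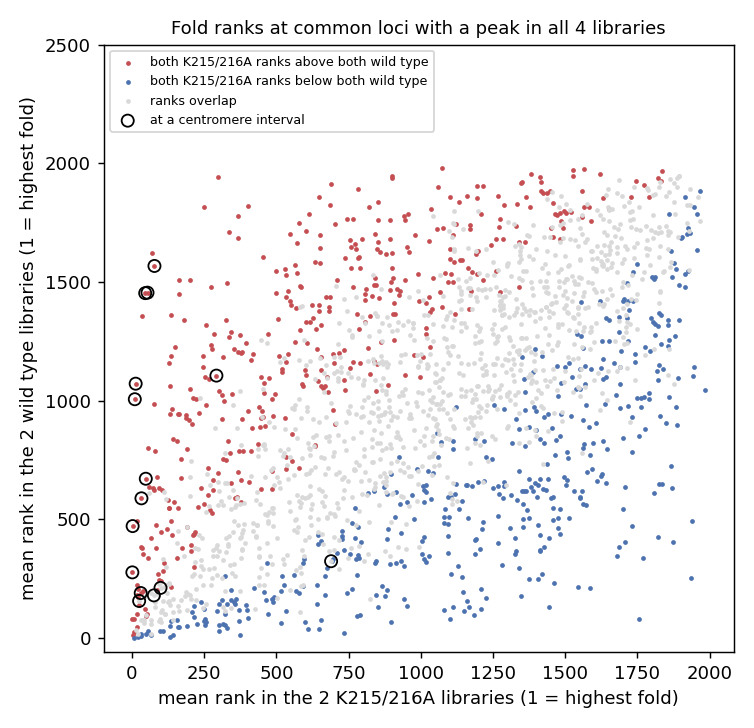
Mean rank of fold in the K215/216A libraries (horizontal axis) against the wild type libraries (vertical axis) at the 1991 common loci, rank 1 being the highest fold. Red points are the 426 loci that ranked higher in both K215/216A libraries, blue points the 434 that ranked lower in both, and the circled points, the 15 loci at centromere intervals, lie mostly at the left edge, with 11 red and none blue.

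Of the loci higher in K215/216A, 44.6% were at promoters, 21.1% between divergent genes and 43.2% inside genes. Of those lower in K215/216A, 34.8% were at promoters, 12.9% between divergent genes and 56.2% inside genes. The same shares over all 1991 loci were 39.1%, 15.8% and 51.8%. Within 5 kb of a centromere interval lay 29 of the higher loci, 6 of the lower and 18 of the overlapping. These loci have peaks in all 4 libraries, so the contrast of promoters and centromeres with gene bodies appeared among shared sites as well as among strain-specific ones.

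The 10 loci with the largest gain in K215/216A were at or near THO1, KTI12 (a factor of tRNA wobble uridine modification), AVT7 (a vacuolar amino acid transporter), RRP6 (an exonuclease of the nuclear exosome), PCP1 (the mitochondrial rhomboid protease), YIR018C-A, YPT7 (a Rab GTPase of vacuole fusion), DEG1 (a tRNA pseudouridine synthase), RSF2 and ECM32 (a helicase). At the THO1 promoter, chrV:281173-281650, fold was 1.82 and 2.00 in K215/216A, 1.33 and 1.34 in K215/216R and 1.26 and 1.25 in wild type. At RRP6, which borders the centromere interval of chromosome XV, fold was 2.18 and 2.41 in K215/216A, 2.00 and 2.03 in K215/216R and 1.52 and 1.38 in wild type. The loci of YPT7 and DEG1 also touched centromere intervals. At all 10, the mean fold of K215/216R lay between those of K215/216A and wild type.

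The 10 loci with the largest loss in K215/216A lay mostly inside genes, 8 of 10, and none at a centromere interval. They were in or near PAU22, DFG5 (needed for cell wall formation), YCL049C, GTT3, the shared MUD2 and LHS1 promoter, RPC11 (a subunit of RNA polymerase III), PDL32, WTM2, CMI8 and ERG27 (3-keto sterol reductase). In DFG5, chrXIII:746251-746837, fold was 1.32 and 1.25 in K215/216A, 1.62 and 1.82 in K215/216R and 2.60 and 2.30 in wild type. In RPC11, fold was 1.31 and 1.18 in K215/216A, 2.06 and 1.84 in K215/216R and 2.20 and 1.78 in wild type. Again the mean fold of K215/216R lay between the others at all 10. PAU22 is another seripauperin gene, with the same limit on read placement as PAU16.

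The 5 common loci with the best mean rank over the 4 libraries, which by this choice ranked high in both strains, were a convergent site nearest to UTR1 (an NAD kinase), the SNF11 promoter (a subunit of the SWI/SNF remodeler), the TOS6 promoter, a convergent site nearest to MTC2, and the space between GAL1 and GAL10. At the UTR1 site, chrX:526701-526918, fold was 3.05 and 3.36 in K215/216A and 4.06 and 3.71 in wild type, with ranks 9 and 4 in K215/216A and 1 and 1 in wild type. At SNF11 fold was 3.23 and 3.22 in K215/216A and 3.25 and 2.76 in wild type. The UTR1 site begins just past the end of CYC1 (chrX:526335-526664). The strains carry a pGAL construct, so reads from it could add to the GAL1 and GAL10 space. Whether construct sequence adds reads there or beside CYC1 was not tested.

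The K215/216R libraries, which took no part in the classes, overlapped regions only in wild type more often than regions only in K215/216A in the deposited lists. The classes differ in fold and in the depth of the libraries behind them, so the shares below are not like for like. K215/216R library 1 had a peak at 45.8% of the regions only in K215/216A (95% interval 43.3 to 48.4) and at 54.5% of those only in wild type (50.4 to 58.7). For library 2, the deeper one, the shares were 72.4% (70.0 to 74.6) and 81.6% (78.2 to 84.6). Both libraries had a peak at most common K215/216A regions, 90.8% and 97.97%. Where the other compared strain had no peak at all, the gap was wider. Of the 553 such K215/216A regions, K215/216R library 1 had a peak at 21.2% and library 2 at 50.3%, and 248 (44.8%) had neither. Of the 205 such wild type regions the shares were 45.9% and 73.2%, and 37 (18.0%) had neither. Of the 553, 293 would have passed at both wild type depths, and 183 of these had a K215/216R peak in 1 or both libraries. Of the 205 wild type regions, 168 had one.

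Ranks put K215/216R between the other strains. Over the 1802 common loci with a peak in all 6 libraries, the 392 that ranked higher in K215/216A had a median mean rank of 556 in K215/216A, 939 in K215/216R and 1188 in wild type. The 397 that ranked lower in K215/216A had a median mean rank of 1215 in K215/216A, 757 in K215/216R and 549 in wild type. The mean K215/216R rank was nearer to wild type than to K215/216A at 208 of the 392 (53.1%) and at 250 of the 397 (63.0%). Loci chosen for a gap between 2 strains have those 2 strains at the extremes, so another strain tends to fall between them, and nothing particular to K215/216R follows from it.

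Few regions lay close to the limit of the class rule. Just inside it, a K215/216A region at chrXIII:442435-442701 by PDL32 overlapped a wild type region by 1 bp, with fold 1.41 and 1.26 in K215/216A and 2.12 in wild type library 2, and a region in YPL247C at chrXVI:83528-83811 did so by 41 bp. Just outside it, a region in SNP1 at chrIX:245037-245250 lay 14 bp from the nearest wild type region, with fold 1.40 and 1.37 in K215/216A and no wild type peak of its own, and a region at the ECM23 promoter lay 17 bp away. In all, 2 overlaps and 4 gaps were under 50 bp.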

How the data were processed

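ChIP sequencing of HA-tagged Cse4 gave 1 peak list per library and 1 merged list per strain. Per the submitters' processing notes, Bowtie 1.0.0, MACS2 2.1.1.20160226, bedtools 2.25.0 and the sacCer3 build were used. The control used in calling, the read filters and the treatment of reads with several matches were not given in the sources used here. The deposited fold is a ratio of pileup to local background. The deposited −log10 p-values and −log10 q-values are those of each summit, with a lowest −log10 q of 1.30, and the deposited score is 10 times −log10 q. The authors' merged lists were rebuilt from the peak lists with the same coordinates and hold only regions with a peak of both libraries.

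The pileup and background of each peak were solved from fold and p under a Poisson tail, which gave whole pileups within 0.05 for 99.6% to 99.9% of peaks. The lowest background stood for depth, and pileups were thinned binomially, in 1 seeded draw, to 59.5 fragments per base. Thinning cannot restore peaks missed in a shallower library. The steps were tested on simulated data first.

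Genes came from the RefSeq R64 table, which has the sacCer3 coordinates. A summit was at a promoter when it fell in the 500 bp upstream of a protein-coding gene. Centromere positions were not used here, and intervals between the innermost genes of the arms took their place. Library measures were compared by exact two-sided permutation tests over 6 splits. Classes, gene lists and ranks are described without tests, since the peaks made the classes. Named regions were the 10 best by mean within-library rank of fold in each strain-specific class, the 10 largest rank gains and losses among common loci with no overlap between strains, the 5 best common loci, the centromere intervals, GAL1, GAL10, CSE4 and PSH1. The members, the rule and the 11 gene lists were chosen with earlier results of these data known. Python 3.11.15, numpy 2.4.6, pandas 2.3.3, scipy 1.17.1 and matplotlib 3.10.9 were used. No sequences are printed.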

Additional observations from a re-analysis of the deposited data

How the results depend on the processing

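The promoter, within-gene, centromere and chromosome end differences between libraries kept their direction under every alternative tried. Their leave-one-out ranges were 3.98 to 4.54, -4.44 to -3.76, 0.603 to 1.08 and -1.29 to -0.604 points. In these measures the libraries of the strains did not overlap, so leaving out 1 library could not reverse a direction. Median width differed by 2 to 24 bp when 1 library was left out. With the replicate number as a block, the differences were the same by arithmetic, 4.26 points for promoters, and the smallest possible p was 0.5. The replicate number pairs nothing in the labels, and the deviations of same-numbered libraries had a correlation of -0.038 over 1991 loci.

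Class sizes depended on the processing. With 1 library left out, that strain's list held every peak of its other library, not only regions with a peak in both. Regions only in K215/216A numbered 851 thinned, 832 at equal list length and 553 with no wild type peak (627 to 2345 with 1 library left out). Common regions numbered 1333 at equal list length, 937 at a −log10 q of at least 5 and 3969 with regions of a single library counted (2132 to 2884 with 1 left out). Regions only in wild type numbered 846 thinned, 962 with single-library regions and 205 with no K215/216A peak (346 to 1684 with 1 left out). Counting single-library regions and asking for no peak in the other strain were chosen after seeing the data.

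For regions only in K215/216A, the share with a peak in K215/216R library 1 was 49.2% thinned, 52.8% at equal length, 13.5% with single-library regions and 21.2% with no wild type peak (25.04% to 45.4% with 1 left out), and in library 2 62.6%, 60.2%, 35.3% and 50.3% (53.9% to 72.1%). For regions only in wild type, library 1 gave 62.8%, 64.7%, 24.7% and 45.9% (35.9% to 52.4%) and library 2 68.4%, 65.0%, 45.3% and 73.2% (61.5% to 79.2%). The cause was not tested. Chromosomes on which the strains did not overlap numbered 11 when thinned and 11 at equal length. The number was 7 to 12 with 1 library left out. No overlap is more frequent by itself when 1 library is set against 2, so that range is not comparable with the other counts.

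Single chromosome differences close to 0 changed sign. Thinning gave 0.031 for XI, -0.326 for XIII and -0.051 for XV; equal length gave -0.304 for XIII and -0.032 for XV; the stricter q gave -0.163 for VI and -0.284 for XIII. With 1 library left out the ranges were -0.321 to 0.171 for V, -0.015 to 0.108 for VI, -0.069 to 0.349 for VII, -0.418 to 0.038 for XI, -0.094 to 0.101 for XIII, -0.506 to 0.036 for XIV, -0.472 to 0.546 for XV and -0.054 to 0.463 for XVI.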
